A study of Homo sapiens with 36 samples.

Results

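The peaks described here are those of RNA polymerase II (pol II) and of the Mediator subunit Med1 in the human bronchial epithelial line BEAS-2B (B2B), set against each other. They were taken from the pooled ChIP-seq peak list of each protein, on chromosomes 1 to 12 and outside every bin of 1 Mb that holds no annotated transcript start. That gave 16521 pol II peaks and 17420 Med1 peaks, 33941 of the 476964 peaks in the 16 lists of the series. The 36 samples of the series came from A549, a lung adenocarcinoma line, and B2B, a non-cancerous line. In both lines they profiled pol II, Med1, the Jun-family proteins JunB, Jun and JunD, the histone marks H3K4me3 and H3K27ac, and input chromatin. CTCF and the cohesin subunit Rad21 were profiled in B2B. Of the 16 lists, 11 were used here. The B2B cells carried no treatment in the labels, were fixed with formaldehyde, and were immunoprecipitated with the 8WG16 antibody for pol II or a Bethyl antibody for Med1. Each protein had 2 replicates, which the authors merged before they called peaks, so every list stood for 1 pool and no spread between replicates could be computed. All intervals given below are 95% intervals for counting error only, and peaks of 1 list are not replicates of a condition.

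Pol II is the enzyme that transcribes protein-coding genes, and much of it is found just past the start of active genes, where it pauses before elongation. Mediator is a large complex that connects transcription factors at enhancers and promoters with pol II, and Med1 is the subunit most used to map it on chromatin. Jun proteins pair with Fos or with each other to form AP-1, a factor that binds enhancers of growth and stress genes, while CTCF and the cohesin ring that holds Rad21 shape chromatin loops and domain borders. H3K4me3 marks active promoters, and H3K27ac marks active promoters and enhancers.

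Distal Med1 peaks with the AP-1 motif were a minority, 10.9% of those with pol II and 6.05% of those without. As examples, 6 of them are shown first. They are the strongest distal Med1 peaks, by the fold enrichment of the peak over its local background, that had a Jun-family peak within 250 bp of the summit and the motif TGAGTCA, on either strand, within 50 bp of it. Distal means no start within 1 kb and no overlap with a gene. Each sequence is the 101 bp around the Med1 summit on the plus strand of hg38, in lower case, with the motif in capitals. The first set of 3 met a pol II peak. They lie at chr5:57889555-57889655, with ACTBL2 (an actin-like gene) as the nearest protein-coding start, at chr12:52147385-52147485 near KRT80 (an epithelial keratin), and at chr5:123700751-123700851 near CSNK1G3 (a casein kinase).
ACTBL2 site: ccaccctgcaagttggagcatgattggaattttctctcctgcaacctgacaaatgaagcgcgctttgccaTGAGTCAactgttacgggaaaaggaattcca
KRT80 site: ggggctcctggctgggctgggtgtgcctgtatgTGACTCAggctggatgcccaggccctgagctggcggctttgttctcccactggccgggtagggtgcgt
CSNK1G3 site: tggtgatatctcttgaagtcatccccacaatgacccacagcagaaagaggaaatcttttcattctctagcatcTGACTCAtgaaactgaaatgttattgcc
The next set of 3 met no pol II peak. They lie at chr1:236097190-236097290 near NID1 (the basement membrane protein nidogen), at chr9:129777346-129777446 near PTGES (a prostaglandin E synthase) and at chr9:134502949-134503049 near RXRA (a nuclear receptor).
NID1 site: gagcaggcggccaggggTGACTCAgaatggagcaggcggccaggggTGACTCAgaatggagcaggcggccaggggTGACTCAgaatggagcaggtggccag
PTGES site: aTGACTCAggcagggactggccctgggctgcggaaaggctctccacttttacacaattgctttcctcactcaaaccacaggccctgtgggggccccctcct
RXRA site: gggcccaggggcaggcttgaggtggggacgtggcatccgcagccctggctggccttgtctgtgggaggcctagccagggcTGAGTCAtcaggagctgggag
The NID1 site carried the motif 3 times in a short tandem repeat, and its 32-mers occurred at a median of 4 places in hg38, while those of the other sites occurred at 1. The Med1 fold enrichment was 30.9, 20.9 and 19.7 at the sites with pol II, in the order shown, and 37.3, 11.9 and 11.8 at the sites without. Jun was present at all 6, and JunB at all but the RXRA site. The KRT80 site and the 3 sites without pol II also had H3K27ac.

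The identity of the cells was checked with marker genes, where a protein-coding gene counted as marked if any of its starts had a peak at a distance of 1 kb or less. Over all 12573 protein-coding genes, 47.8% had both proteins by this count. Of 18 bronchial epithelial genes, 8 had both, a share near that background, among them KRT8 and KRT18 (keratins of simple epithelia; pol II fold enrichment 12 and 11.2, Med1 13.8 and 11.6) and DSP, a desmosome protein. The basal cell genes KRT5, KRT6A and TP63 had neither protein, and EPCAM had pol II alone. Of 14 mesenchymal genes 7 had both, also near the background, including VIM (pol II 5.54, Med1 17.5) and FN1 (7.03 and 11.6). None of 9 secretory and alveolar genes had either protein, and of 8 blood genes CD14 alone had a peak, of Med1. The counts of the epithelial and mesenchymal lists therefore do not tell the cells apart, and the label rests here on single genes such as the keratins of simple epithelia.

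Both proteins were found most often together at start sites. Of all pol II peaks 60.1% overlapped a Med1 peak (59.4 to 60.9), and of all Med1 peaks 54.3% overlapped a pol II peak (53.6 to 55.0). At start sites, which are peaks within 1 kb of any annotated start, 78.2% of 9691 pol II peaks met Med1 and 62.8% of 11121 Med1 peaks met pol II. At distal sites the shares were 45.6% of 1788 pol II peaks and 37% of 2232 Med1 peaks. The difference between start and distal sites was 32.6 points for pol II (30.1 to 35.0) and 25.8 points for Med1 (23.5 to 27.9), and it had the same direction on 12 of 12 chromosomes for each list. Gene bodies stood apart for pol II: only 30.5% of its 5042 peaks there met Med1, against 40.6% of 4067 Med1 peaks that met pol II. Among single chromosomes, the share of Med1 peaks with pol II went from 42.1% on chromosome 9 to 62.5% on chromosome 2.

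**Figure D1:**
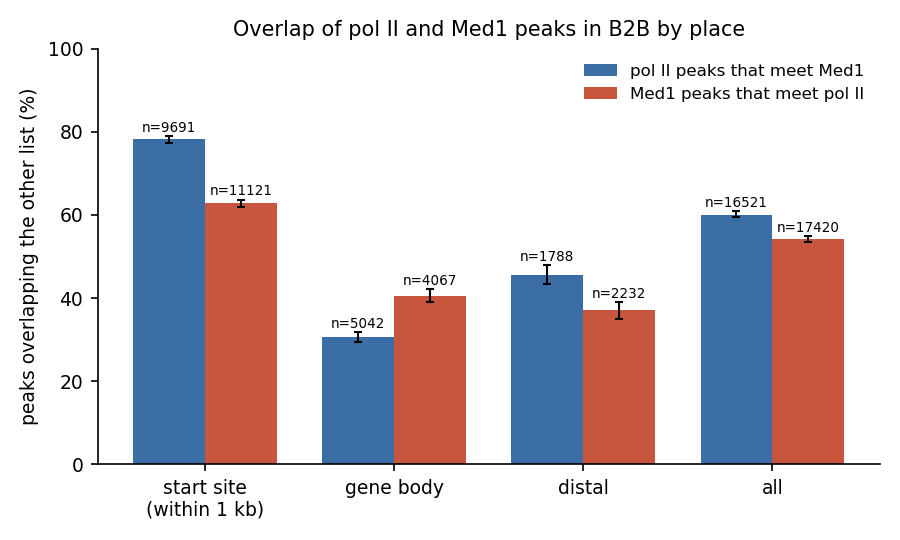
Share of B2B pol II peaks that overlap a Med1 peak (blue) and of Med1 peaks that overlap a pol II peak (red), in percent, at start sites, in gene bodies, at distal sites and in all. Bars start at 0, error bars are 95% Wilson intervals and n is the number of peaks; start sites stand highest for both lists, at 78.2% and 62.8%.

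Merging the lists gave 23175 sites, of which 8629 (37.2%) were joint, 6584 (28.4%) held pol II alone and 7962 (34.4%) held Med1 alone. Start sites made up 6455 of the joint sites. Gene bodies held the largest group of sites with pol II alone, 3503, which is more than the 2109 at starts and the 972 at distal sites. Med1 alone was found at 4140 start sites, 2416 gene body sites and 1406 distal sites. Single peaks that met the other list were longer than those that did not, with medians of 454 and 274 bp for pol II and 560 and 237 bp for Med1. Most joint sites, 6916, held a single peak of each protein.

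The strength of a Med1 peak went with the presence of pol II. Med1 peaks were ranked by fold enrichment and split into 10 equal bins. In each of the lowest 4 bins between 28.8% and 36.2% met pol II, and in the highest bin 91.3% did (89.9 to 92.5). At start sites the median fold enrichment of Med1 was 8.47 with pol II and 5.45 without. Pol II peaks did not follow this order: 89.4% of the lowest bin met Med1, 39.5% of bin 7 and 69.6% of the highest bin. The fold enrichment of pol II was not a measure of its read density alone. Solving the fold enrichment and p-value of each peak for its pileup gave a median of 126 reads at start-site pol II peaks with Med1 and 27 at those without. The local background under start-site pol II peaks had a median of 14.9 times the lowest of the list, against 1.66 times for start-site Med1 peaks and 1.43 times for start-site pol II peaks in A549. The part of this background in the overlap was not tested.

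**Figure D2:**
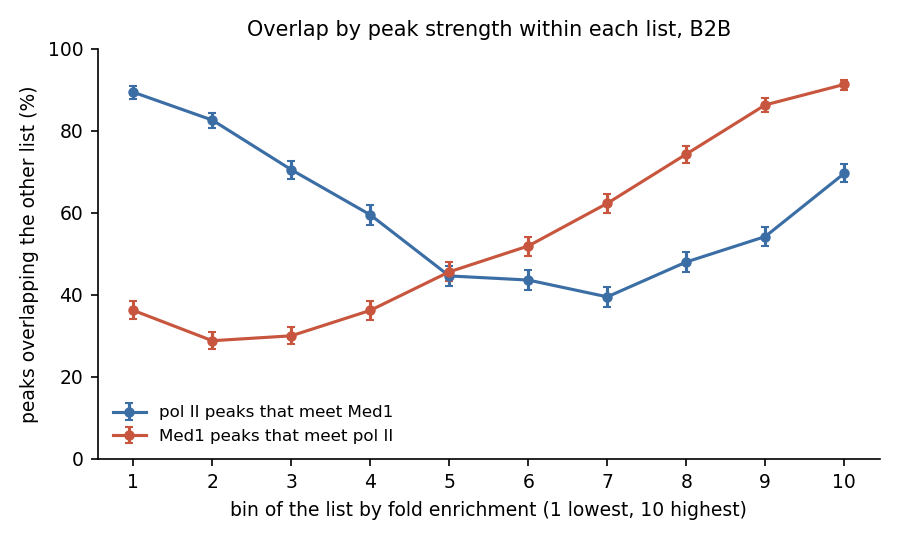
Share of peaks that overlap the other list (percent, with 95% Wilson intervals) in 10 equal bins of each B2B list by fold enrichment, from 1 (lowest) to 10 (highest). Med1 (red) stands at 28.8% to 36.2% in the lowest 4 bins and climbs to 91.3%, whereas pol II (blue) falls from 89.4% to 39.5% in bin 7 and ends at 69.6%.

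Part of both lists lay in sequence that the genome holds more than once. For every summit the 32-mers within 50 bp were counted in hg38, and a summit was called repeated where their median copy number was 2 or more. This count was chosen after the data were seen. Of distal Med1 peaks, 25.9% were repeated (24.2 to 27.8), with 14.9% among those with pol II and 32.4% among those without. In gene bodies 6.84% of Med1 peaks with pol II and 25.3% of those without were repeated, and at start sites 3.68% and 9.73%. For pol II the distal shares ran the other way, 18.4% with Med1 and 8.44% without. Some of the strongest distal Med1 peaks were of this kind. The 5 with the highest fold enrichment and no pol II had summits between 10.2 and 91.6 kb from the end of a chromosome, led by chr10:9907-10560 (fold enrichment 106, median of 910 copies). Of the top 5 with pol II, 3 lay together between chr1:143189728 and chr1:143247878 with medians of 4 to 13 copies, and each of them met JunB, Jun and JunD but not CTCF. The other 2 of these 5, with PROS1 and ELOVL5 as their nearest coding starts, had summit sequence found once. Without all repeated summits 58.0% of Med1 peaks met pol II (57.2 to 58.8), and the difference between start and distal sites was 21.7 points (19.2 to 24.3). For the pol II peaks the same values were 60.6% and 36.0 points.

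Jun-family proteins stood at most distal joint sites. A JunB, Jun or JunD peak lay within 250 bp of 79.9% of 826 distal Med1 summits with pol II and of 33.7% of 1406 without, a difference of 46.2 points (42.4 to 49.7) that held on 12 of 12 chromosomes. Jun, the founding member of the family, was at 76.9% of the distal Med1 summits with pol II, JunB at 44.7% and JunD at 36.7%. The lists differed in length, with 9036 distal peaks for Jun, 1859 for JunB and 1555 for JunD. Of these peaks 6.70%, 19.6% and 19.5% lay within 250 bp of such a summit, so this order did not follow the first. All 3 were together at 28.9% with pol II and at 5.48% without. Without repeated summits the family stood at 79.4% and 38.9%, a difference of 40.4 points (36.0 to 44.6). Med1 peaks with pol II were also stronger, with a median fold enrichment of 7.16 against 5.62, so the comparison was repeated in each of 3 equal parts of the Med1 list by fold enrichment. The differences there were 47.2 points in the weakest part, 45.1 in the middle and 40.7 in the strongest, each with an interval above 0.

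Distal pol II peaks differed less in this respect. The Jun family was at 82.0% of 816 distal pol II summits with Med1 and at 64.2% of 972 without, a difference of 17.8 points (13.7 to 21.7). With peaks in bins with no start kept, this value was 6.37 points (2.26 to 10.4). The Jun-family lists still left those bins out, so the added peaks could count only as having none. That re-run therefore cannot show how those bins change the difference. Gene bodies resembled distal sites: Jun-family peaks were at 79.8% of Med1 summits with pol II and 35.5% of those without (difference 44.4 points, 41.6 to 47.0), and at 81.1% and 50.7% of pol II summits with and without Med1. At start sites the family was rare. It was at 15.1% of Med1 summits with pol II and 7.1% of those without (difference 7.97 points, 6.81 to 9.10). For start-site pol II peaks the order turned, with 14.0% when Med1 was present and 22.7% when it was absent (difference -8.68 points, -10.7 to -6.77).

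CTCF showed the same order as the Jun family at distal sites. It was within 250 bp of 73.8% of distal Med1 summits with pol II and 45% of those without, a difference of 28.9 points (24.8 to 32.8), or 23.1 points (18.7 to 27.4) without repeated summits. At distal pol II summits it was at 69.7% with Med1 and 45.1% without (difference 24.7 points, 20.2 to 29.0). CTCF and a Jun-family peak were found together at 64.8% of distal Med1 summits with pol II and 21.3% without, while 11% and 42.6% had neither. At start-site Med1 summits CTCF was at 34.0% with pol II and 25% without (difference 8.98 points, 7.25 to 10.7). In the strongest of the 3 parts of the Med1 list that difference was -4.02 points, with an interval of -8.36 to 0.185 that includes 0.

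Rad21 did not follow CTCF. It was at 41.3% of distal Med1 summits with pol II and 34.3% without (difference 7 points, 2.84 to 11.2), and without repeated summits at 45.1% and 45.9% (difference -0.802 points, -5.64 to 4.05). Rad21 separated pol II peaks instead: it was at 42.2% of distal pol II summits with Med1 and 9.57% of those without, and at 81.3% and 15.8% of start-site pol II summits. H3K27ac did likewise, with 57.1% and 15.4% of distal pol II summits, and 95.8% and 42.1% at starts. At distal Med1 summits H3K27ac was at 58.2% with pol II and 37.4% without (difference 20.8 points, 16.6 to 25), and without repeated summits at 62.2% and 48.5% (difference 13.6 points, 8.80 to 18.4). H3K4me3 was at 89.2% of start-site Med1 summits with pol II and 64.1% without. At distal pol II summits it was at 20.1% with Med1 and 17.5% without, a difference whose interval, -1.01 to 6.27 points, includes 0.

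**Figure D3:**
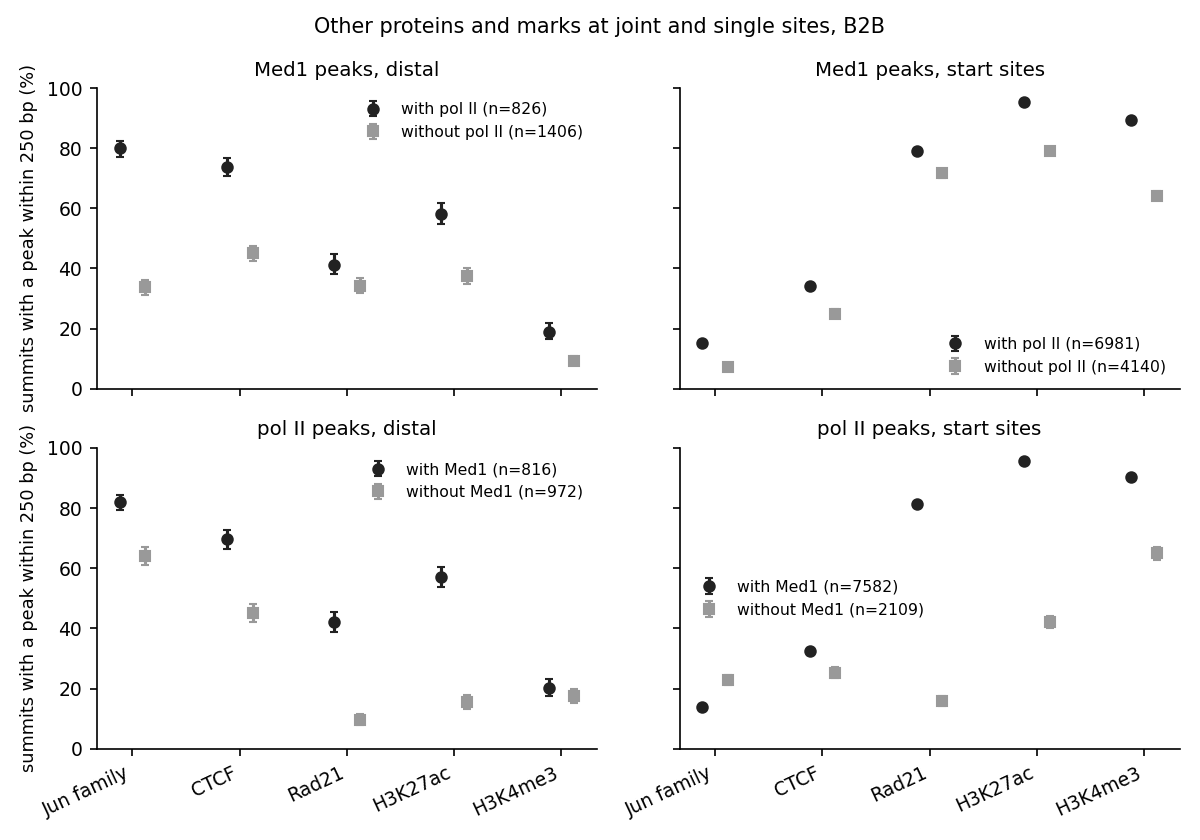
Share of B2B summits (percent, with 95% Wilson intervals) that have a peak of the Jun family, CTCF, Rad21, H3K27ac or H3K4me3 within 250 bp, for Med1 peaks (top) and pol II peaks (bottom) at distal sites (left) and start sites (right). Black circles are peaks that meet the other list and grey squares those that do not; the Jun family stands at 79.9% and 33.7% of distal Med1 peaks, and Rad21 at 81.3% and 15.8% of start-site pol II peaks.

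The sequence under the summits differed between the kinds of site. The AP-1 motif TGAGTCA (or TGACTCA on the other strand) lay within 50 bp of 10.9% of distal Med1 summits with pol II (8.95 to 13.2) and 6.05% of those without, a difference of 4.85 points (2.47 to 7.42). Windows of the same length 2 kb to either side held it in 1.57% and 1.49%. Among summits found once in the genome the shares were 12.7% and 8.42% (difference 4.24 points, 1.26 to 7.35). In the middle of the 3 parts by fold enrichment the difference was 3.52 points, with an interval of -0.330 to 8.09. Of distal pol II summits 5.27% with Med1 and 5.35% without held the motif, against 1.16% and 1.90% in their flanks. GGAATG, the core bound by TEAD factors, was at 17.8% and 10.0% of distal Med1 summits with and without pol II, with 8.23% and 6.47% in the flanks. Among summits found once it was at 15.6% and 11.3%, and among repeated summits at 30.1% and 7.46%.

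Jun peaks differed in strength and motif by the distal sites they met. Jun peaks within 250 bp of distal Med1 summits with pol II had a median fold enrichment of 16.3 and the AP-1 motif in 29.6% of 605 (26.1 to 33.3). Those near distal Med1 without pol II had a median of 11.7 and the motif in 39.3% of 422 (34.8 to 44.1). Around Med1 summits found once in the genome these shares were 33.1% and 42.3%. Jun peaks near distal pol II without Med1 had a median of 19.3 and the motif in 30.8% of 591 (27.2 to 34.6), close to those at joint sites. The 7478 distal Jun peaks near none of the distal pol II or Med1 summits compared here had a median of 8.32 and the motif in 41.6%. JunB peaks held the motif in 39.8% of 364 near distal Med1 with pol II, 64% of 150 near distal Med1 without, 48.3% of 230 near distal pol II without Med1 and 52.6% of 1123 near none of these, with medians of fold enrichment between 6.45 and 7.46. For CTCF peaks, the CTCF core motif was under 1.64% of 608 CTCF summits at distal Med1 with pol II, 11.4% of 625 at distal Med1 without pol II, 1.31% of 458 at distal pol II without Med1 and 13.5% of the 10271 distal CTCF peaks near none of them.

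At start sites GGGCGG, the box bound by SP and KLF factors, was at 36.9% of Med1 summits with pol II and 33.7% without (3.20% and 4.98% in the flanks). For pol II summits it was at 28.2% with Med1 and 6.45% without (3.07% and 2.99% in the flanks). The ETS core CCGGAAG was at 5.93% of start-site Med1 summits with pol II and 3.36% without, against 0.329% and 0.616% in the flanks. The GC content around pol II start-site summits followed the same split, with a median of 67.3% where Med1 was present and 50.5% where it was absent. Start-site Med1 summits had medians of 68.3% and 69.3%. Part of the start-site peaks lay only at starts of genes that code for no protein, namely 8.18% of pol II peaks with Med1 and 19.2% without, and 8.95% of Med1 peaks with pol II and 17.0% without.

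Position along the gene also set pol II alone apart. Of the 972 distal pol II peaks without Med1, 25.9% (23.3 to 28.8) lay within 5 kb past the end of a protein-coding gene, where transcription runs on past the cleavage site, against 9.19% (7.40 to 11.4) of those with Med1. For distal Med1 peaks these shares were 11.5% with pol II and 12.4% without. In the bodies of coding genes 29.4% of pol II summits without Med1 lay in the first 20% of the gene, against 22.4% with Med1, and their median distance from the gene start was 26.6 kb against 49.7 kb. The strongest distal pol II peaks without Med1 had as their nearest starts TGFB2 (a transforming growth factor), IPMK, MAST4, IL24 (a cytokine) and LBH, with pol II fold enrichments of 35.8, 31.4, 29.2, 27.7 and 25.3. The strongest distal Med1 peaks with pol II whose summit sequence occurs once lay near PROS1 (fold enrichment 92.6, on chromosome 3, 416 kb from the start), ELOVL5 (59.8), HES1 (48.0), BHLHE40 (44.8) and CCN1 (36.5). The PROS1 peak had JunB, Jun, JunD, CTCF and Rad21 but neither H3K27ac nor H3K4me3, while the others had H3K27ac. Copies were counted on the assembled chromosomes only, so copies on unplaced sequences were not seen.

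Around the start itself the proteins were placed differently. Taking 1 start for each coding gene with both proteins, and leaving out those with a start on the other strand within 2 kb, left 2809 genes. The pol II summit lay at a median of 41 bp downstream of the start, with quartiles at 7 and 71 bp. The Med1 summit had a median of -3 bp and quartiles at -100 and 112 bp, so it was spread over both sides. The pol II summit was downstream of the Med1 summit at 54.2% of these genes (52.3 to 56.0), and at 52.9% of all 5547 genes with unequal summits (51.6 to 54.2).

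**Figure D4:**
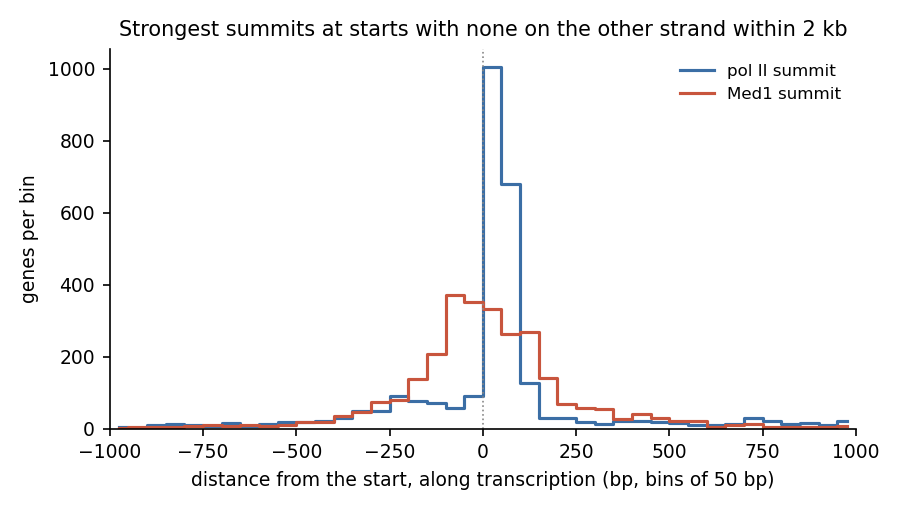
Number of genes per bin of 50 bp whose strongest pol II summit (blue) or Med1 summit (red) lies at the given distance from the start, along the direction of transcription, for 2809 genes with no start on the other strand within 2 kb. Pol II summits pile up in the first bins past the start, with 1005 genes in the bin just downstream, whereas Med1 summits spread over both sides, with 371 genes in the highest bin.

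For genes, 12573 protein-coding genes were scored. Both proteins were within 1 kb of a start at 6013 of them (47.8%), Med1 and no pol II at 1423 (11.3%), pol II and no Med1 at 296 (2.35%) and neither at 4841 (38.5%). These shares are the background for every gene list below. Most genes with Med1 alone carried the marks of active promoters. H3K4me3 was at 77.7% of them against 10.5% of the genes with neither, a difference of 67.3 points (64.9 to 69.5), H3K27ac at 84.7% against 9.83% and Rad21 at 93.3% against 22.1%. Compared with genes that had both proteins, they had less H3K4me3 (by 20.8 points, 18.7 to 23.1), less H3K27ac (by 14.8 points) and fewer Jun-family peaks (14.7% against 27.9%). For Rad21 the difference between genes with both proteins and genes with Med1 alone was -0.288 points (-1.66 to 1.26). Genes with pol II alone had a Jun-family peak in 31.4% and Rad21 in 52.7%, against 18.0% and 64.8% of all genes. Of the 1423 genes with Med1 alone, 1195 (84.0%) had no pol II peak anywhere in the gene, 150 had a pol II peak within 5 kb of a start and 521 had none within 50 kb. In A549, 87.8% of them had a pol II peak at a start. The share was 98.4% for genes with both proteins in B2B, 21.0% for genes with neither and 66.9% for all genes. The A549 pol II list was longer, with 32576 peaks against 16521 in B2B. The part of list length in these shares was not tested.

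**Figure D5:**
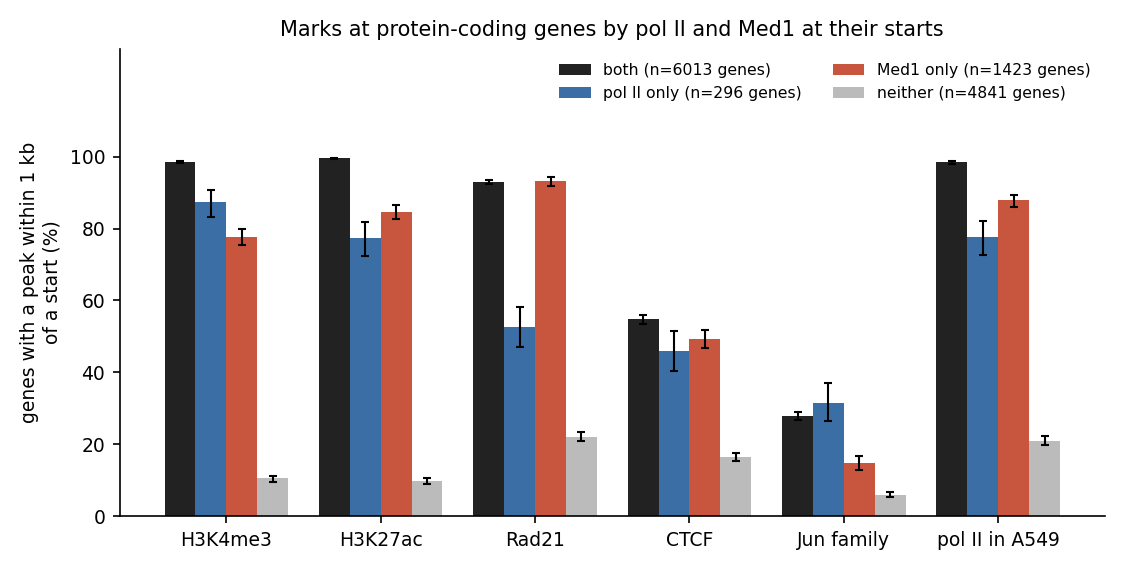
Share of protein-coding genes (percent, bars from 0, 95% Wilson intervals) with a peak of each mark within 1 kb of a start in B2B, and of pol II in A549, for genes with both proteins, pol II only, Med1 only or neither at their starts in B2B. Genes with Med1 only stand at 77.7% for H3K4me3 and 93.3% for Rad21, well above the genes with neither, at 10.5% and 22.1%.

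Housekeeping genes had both proteins. All 44 cytosolic ribosomal protein genes did, as did 7 of 7 pol II subunit genes, 16 of 16 heat shock genes, 22 of 24 complex I genes of the respiratory chain and 65 of 69 replication-dependent histone genes, against 47.8% of all genes. Mediator subunit genes had both in 13 of 17, with pol II alone at MED8 and MED10 and Med1 alone at MED12L and MED30. Factors of pausing and elongation had both in 12 of 14. There NELFB, a subunit of the negative elongation factor, had Med1 alone (fold enrichment 13.6) and MLLT3 neither. Families of restricted expression were at the other end: 329 of 331 olfactory receptor genes and 23 of 29 HOX genes had neither protein, and the HOX genes with both were HOXC4, HOXC6, HOXC8 and HOXC9.

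Most genes of the growth and stress response lists also had both proteins. Of 18 immediate early genes 16 had both, among them EGR1, a zinc finger factor (pol II 5.95, Med1 24.5), and DUSP1, a MAP kinase phosphatase (4.70 and 34.2). EGR3 had Med1 alone and EGR2 neither. Of 19 targets of YAP and TEAD 18 had both, including CCN1 (11.1 and 67.9) and CCN2 (9.19 and 24.1), matricellular proteins, and AMOTL2 (6.08 and 59.3), a YAP-binding scaffold. A Jun-family peak was at 12 of these 19 genes and at 10 of the 18 immediate early genes, against 18.0% of all 12573 genes. Fold enrichments compare peaks within a list only, not pol II with Med1. Of all genes with both proteins, CCN1 had the highest Med1 value (peak at chr1:85579602-85583538), followed by HES1 (62.7, a Notch target) and AMOTL2. The remaining 7 of the top 10 lay in the histone cluster of chromosome 1, where neighbours shared peaks, and were H2AC18, H3C14, BOLA1, H2AC20, H2AC21, H2BC21 and H2AC19.

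Inflammatory genes were split. Of 18 NF-kB and chemokine genes, 8 had both proteins, 3 had pol II alone, 4 had Med1 alone and 3 had neither. These are 44.4%, 16.7%, 22.2% and 16.7%, against 47.8%, 2.35%, 11.3% and 38.5% of all genes. The share with both was thus near the background. Pol II alone was at IL1A, IL1B and CXCL8, secreted cytokines, with pol II fold enrichments of 8.98, 18.0 and 10.5, and each of them had a Jun-family peak. Med1 alone was at CXCL1, CXCL3, BIRC3 and TNFAIP3, the last a feedback inhibitor of NF-kB, and of these TNFAIP3 had a Jun-family peak. With 18 genes and 1 pool for each protein, these counts describe the list and carry no test.

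The strongest genes of the single kinds were named by rule. Among genes with Med1 alone and no pol II within the gene, the highest Med1 fold enrichment was 30.1 at a peak shared by EXD3 and NOXA1 (an NADPH oxidase activator) at chr9:137422650-137423637, whose nearest pol II peaks were 35.9 and 35.6 kb from their starts. RARG, a retinoic acid receptor, came next with 24.4 at chr12:53220807-53221889 and 18.9 kb to the nearest pol II peak. The others were MMRN2, NBPF1, C8G and FBXW5 (with a shared peak), CCDC86, TEX264 and IPO13, at 16.5 to 23.1. MMRN2 had a pol II peak 1.25 kb from a start, just past the limit of 1 kb. NBPF1 belongs to a family of near-identical copies, so its reads may be uncertain. All 10 genes had a pol II peak at a start in A549, as did 87.8% of all genes with Med1 alone and 66.9% of all protein-coding genes. Among genes with pol II alone, TRIM38 (a ubiquitin ligase of antiviral signalling) had the highest pol II value, 44.5 at chr6:25962461-25963500, followed by ANXA1 (an annexin) with 41.5 at chr9:73151629-73152844. NAT1, COL5A2, BTN3A1, IFIT2 (an interferon-induced gene), CWF19L2, LAMA2, TRIM22 and SLC1A3 followed at 22 to 34.4. Any annotated start of a gene counted, so some peaks lay well inside the gene. At LAMA2 the peak was at chr6:129490546-129491294, in a gene that spans 128883138 to 129516566. Of these 10 genes with pol II alone, 10 had H3K4me3 and 2 had Rad21 at a start, COL5A2 and LAMA2. Among all genes with pol II alone the shares were 87.5% and 52.7%.

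The A549 lists of the 2 proteins overlapped in other shares than those of B2B. There 89.6% of Med1 peaks met pol II, against 54.3% in B2B (difference -35.3 points, -36.2 to -34.4), and at start sites 97.6% against 62.8%. The share of pol II peaks that met Med1 moved the other way, with 32.6% in A549 and 60.1% in B2B (difference 27.6 points, 26.7 to 28.5). At start sites it was 50.5% against 78.2%. The A549 pol II list was longer, with 32576 peaks over 23.2 Mb, against 16521 peaks over 8.48 Mb in B2B. The local background under start-site pol II peaks also differed. Its median was 14.9 times the lowest of the list in B2B and 1.43 times in A549. The part of this background in the differences between the lines was not tested. With the lists of both lines and both proteins at equal length the difference for Med1 was -24.7 points (-25.7 to -23.7), and with the bins without a start kept it was -23.3 points (-24.2 to -22.3).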

How the data were processed

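ChIP-seq for pol II and Med1 was carried out with 2 replicates for each antibody in B2B. According to the study's methods the authors aligned reads to hg38 with Bowtie2 2.4.4, removed duplicates, merged replicates, scaled them by depth with SAMtools 1.13 and called peaks with MACS2 2.2.7.1. The options and the control of the peak caller are not given in the sources used here, and input chromatin was not used here. Read depth is not known from the lists. The score deposited by the authors for each peak is 10 times its −log10 q, rounded down, and the −log10 q itself was deposited beside it. The deposited fold enrichment is the ratio of the pileup to the local background at the summit. The significance deposited by the authors is the −log10 of the p-value, and the deposited summit is an offset from the start of the peak.

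From the 16 lists, 11 were used: the 9 of B2B, and pol II and Med1 of A549. Chromosomes 1 to 12 were kept because the Med1 list of B2B holds no peak past a point on chromosome 15. Summits in bins of 1 Mb with no start in GENCODE release 44 were left out. An overlap needed 1 bp. Starts were within 1 kb of any transcript start, and other proteins and marks were counted within 250 bp of a summit. Fold enrichment and p-value were solved for pileup and background on the assumption of a Poisson model with a pseudocount of 1. Shares have Wilson 95% intervals and differences Newcombe 95% intervals, called where they exclude 0. They cover counting error only, and no test over samples could be made, since each list is 1 pool. Python 3.11.15, NumPy 2.4.6, pandas 2.3.3, SciPy 1.17.1, pysam 0.24.0 and Matplotlib 3.10.9 were used, and the functions were tested on simulated data.

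Genes named are members of 16 gene lists, the 10 genes with the highest fold enrichment among those with both proteins, pol II alone, or Med1 alone with no pol II in the gene, and the 5 strongest distal peaks of each kind. The distal peaks found once in the genome were added after values were seen, as was the count of repeated 32-mers. Of the listed symbols, 2 were not found. The members, the gene lists and the tests were chosen with earlier results of these data known. Alternatives were a −log10 q of at least 5, lists of equal length, other overlaps and start distances, coding starts only, bins kept, whole peaks in place of windows, parts of equal size by fold enrichment, and repeated summits left out.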

Additional observations from a re-analysis of the deposited data

Results flagged for a closer look

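The deposited lists also held peaks outside the comparisons above, more than the 3 that a count of 0 allows. A count of called peaks does not show whether they are signal, and no input chromatin was compared. In bins of 1 Mb with no annotated start the B2B lists held 1126 Med1 peaks, in 21 bins, and 432 pol II peaks, in 13 bins. Of these Med1 peaks 259 met a pol II peak and 665 had a Jun-family peak within 250 bp. Of these pol II peaks 272 met Med1 and 344 had a Jun-family peak. None of the summits in either set had the AP-1 motif within 50 bp (0 of 1126 and 0 of 432). The pol II list of B2B also held 109 peaks on unplaced sequences.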

How the results depend on the processing

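Of 134 results under alternatives, 123 kept their direction and their side of the threshold or range. The share of pol II peaks with Med1 was 59.3% with lists of equal length, 56.6% when the overlap had to cover at least 0.5 of the shorter peak and 67.1% with peaks within 500 bp. The share of Med1 peaks with pol II was 58.0% at a −log10 q of at least 5, 56.0% with equal lengths, 51.2% with the longer overlap, 62.1% within 500 bp, 52.4% with bins without a start kept and 58.0% without repeated summits. CTCF at start-site Med1 summits turned to -4.02 points among the strongest Med1 peaks, with an interval that includes 0, and was 3.17 points within 500 bp. The AP-1 motif difference at distal Med1 was 3.52 points in the middle part by fold enrichment, with an interval that includes 0. With the bins kept, the differences at distal pol II summits were 6.37 points for the Jun family and 13.6 for CTCF. In the re-runs with bins kept, the Jun-family and CTCF lists still left those bins out. The added peaks could count only as having neither, so these re-runs, which are among the 134, cannot show the effect of the bins on Jun-family and CTCF differences. In the weakest and middle parts of the pol II list the differences for CTCF were 12.7 and 40.5. The causes of the other changes were not tested. No paired analysis was possible because each list pools its replicates, and leaving out a replicate could not be run for the same reason. Read depth is not known, so a peak missing from a list may lie under its threshold.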

Other observations

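The strongest distal Med1 peaks with no pol II, among those whose summit sequence occurs once in hg38, still included 2 at chromosome ends, with summits 10.2 and 10.1 kb from the end of chromosomes 12 and 10 (fold enrichment 53.2 and 29.2) and no Jun-family peak. The next was near SDK1, a cell adhesion gene (18.4), and had JunB, Jun, JunD, CTCF, Rad21 and H3K27ac. Those near NOTCH1, the receptor gene (18.1), and RABL2A (18.0) had Rad21 and H3K27ac, the former with Jun and the latter with CTCF.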
